A study of Homo sapiens with 3 samples.

Results

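The Krüppel-like factors (KLFs) examined here are 10 transcription factor genes, KLF2, KLF3, KLF4, KLF5, KLF6, KLF7, KLF9, KLF10, KLF11 and KLF13, chosen by gene name from the 43317 names on the array. They were measured in HCT116, a colorectal cancer cell line, after transfection with one of 2 small interfering RNAs against SMARCA4 (SMARCA4-KD1 and SMARCA4-KD2) or in NC cells, which the study's methods describe as a scrambled negative control. Each condition had 1 array. SMARCA4, also called BRG1, is an ATPase of the SWI/SNF chromatin remodeling complexes, and all 3 cultures belong to the same line, so that these data hold no second cell line and no second culture of any condition. Titles of the samples name SMARCA4, while their treatment entries say PRMT1, and the number of each knockdown was read from the treatment entry.

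KLFs share a DNA-binding end of zinc fingers that recognizes GC-rich and CACCC-type sequences, and they differ in the rest of the protein, which recruits coactivators or corepressors. In the intestinal epithelium KLF4 is known from the differentiated cells of the upper crypt and villus and KLF5 from the dividing cells of the crypt base. Several KLFs, among them KLF2, KLF4, KLF6 and KLF10, are also known as genes induced early after growth factors or stress.

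The SMARCA4 probe gave an intensity of 14026 in NC, 3960.2 after SMARCA4-KD1 and 4129 after SMARCA4-KD2, and that of PRMT1 gave 7683, 9801 and 10147 in this order, so that of these 2 genes SMARCA4 was the one lower in both knockdowns. From 45.7% to 47.3% of the 58201 probes per array were well above background. All 6 epithelial markers (EPCAM, CDH1, KRT8, KRT18, KRT19 and CLDN7) were well above background on all arrays, with a summed intensity between 374964 and 408648. Of the fibroblast, endothelial and leukocyte markers, 1 of 5, 2 of 4 and 3 of 4 on the array were measured, and no list of these summed to more than 477 on any array. NC was hybridized on slide 2 and both knockdowns on slide 1, so that slide and knockdown cannot be told apart. With 1 array per condition, the differences below could not be checked against replicates, and precision is limited by the small number of arrays.

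The 10 KLF genes had 16 probes, 12 of them well above background on all 3 arrays and 4 on none. Every one of the 10 genes had at least 1 probe well above background on all arrays, 7 genes had a single probe, and the other 3 were represented by their brightest probe. No probe of a KLF member shared a run of more than 10 bases with a probe of another KLF or SP gene among 38 probes compared, both strands included. The members' brightest probes had a GC content from 35% to 55%. Values are log2 intensities relative to the 75th percentile of all probes of the same array, a log2 fold change is the difference between 2 arrays, and the errors are those of the extraction software, which leave out the variation between cultures. Because probes bind with different strength, levels were compared between arrays and not between genes.

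**Figure D1:**
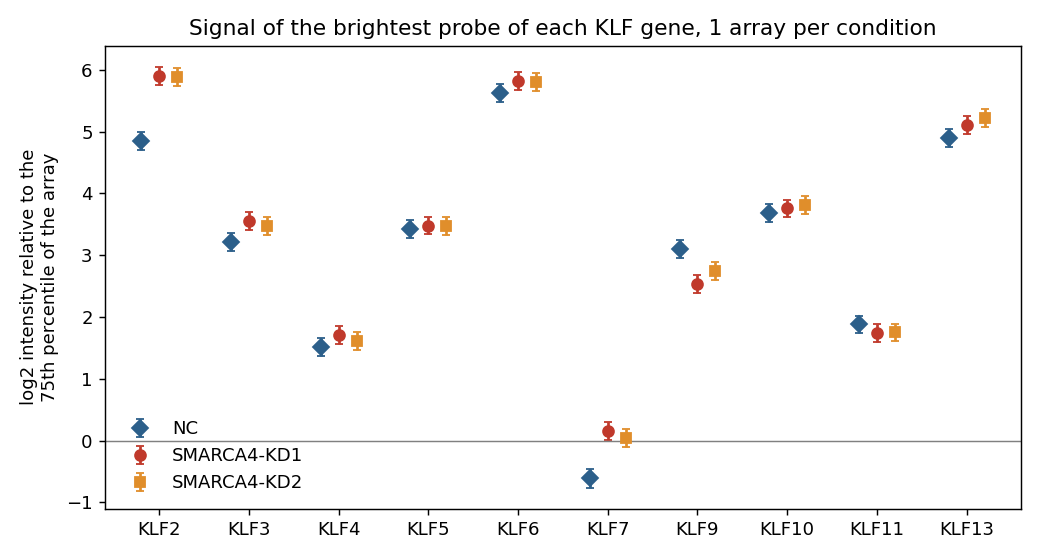
Log2 intensity relative to the 75th percentile of the array (y axis) for the brightest probe of each KLF gene (x axis), with 1 point per array (NC, SMARCA4-KD1 and SMARCA4-KD2) and the extraction error as bars. KLF2 and KLF7 lay higher and KLF9 lay lower in both knockdowns than in NC, and the heights of different genes are not comparable.

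KLF2 and KLF7 were the members at least 1.5-fold higher than NC, each of them in both knockdowns, and no member was at least 1.5-fold lower in either. The threshold of 1.5-fold is that of the study, which required a p under 0.01 as well. Here it was applied without a test. In SMARCA4-KD1, 2 of 10 members were higher by this threshold, beside 11.2% of the 22620 genes measured, and 0 of 10 were lower, beside 12.2% of all genes. In SMARCA4-KD2 the corresponding shares of all genes were 10.1% higher and 9.77% lower, again with 2 and 0 members. In both knockdowns together, 6.36% of all genes were higher in each and 8.03% were lower in each. A single NC array served both comparisons, which are therefore not independent. The median log2 fold change of the members was 0.20 after SMARCA4-KD1 and 0.15 after SMARCA4-KD2, where the medians of all genes were -0.0022 and 0.02.

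KLF2, known for the quiescence of T cells and for the response of endothelium to blood flow, showed the largest difference of the members. Its only probe, on chromosome 19 of hg19 from 16438246 to 16438305, gave an intensity of 6419 in NC, 14163 after SMARCA4-KD1 and 13467.5 after SMARCA4-KD2. Both knockdown values lay close together and above NC. The log2 fold change was 1.06 ± 0.20 after SMARCA4-KD1 and 1.04 ± 0.20 after SMARCA4-KD2 (extraction error, 1 array each), a 2.08-fold and a 2.05-fold higher signal. Among all genes this placed KLF2 at percentile 97.0 after SMARCA4-KD1 and 97.4 after SMARCA4-KD2. The knockdowns differed from each other by a log2 value of 0.02.

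KLF7, described as a widely expressed family member and studied in neurons and fat cells, had a single probe on chromosome 2 from 207945568 to 207945627. Its intensity was 146 in NC, 263 after SMARCA4-KD1 and 235 after SMARCA4-KD2. Its NC signal was 8.28 times the lowest intensity well above background on that array, and both knockdown values lay above it. The log2 fold change was 0.76 ± 0.21 after SMARCA4-KD1 and 0.65 ± 0.21 after SMARCA4-KD2, a 1.70-fold and a 1.57-fold higher signal at percentiles 93.5 and 91.9 of all genes. With normexp background correction its log2 fold changes were 0.53 and 0.45, under 1.5-fold.

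KLF9, which is induced by glucocorticoids and thyroid hormone, was the member with the largest lower signal. Its only probe, on chromosome 9 from 72999837 to 72999896, gave an intensity of 1919 in NC, 1373 after SMARCA4-KD1 and 1528 after SMARCA4-KD2. The NC value was thus the highest of the 3. The log2 fold change was -0.57 ± 0.20 after SMARCA4-KD1 and -0.36 ± 0.20 after SMARCA4-KD2, so that NC was 1.48-fold and 1.28-fold higher, short of 1.5-fold in each. KLF9 lay at percentiles 12.8 and 19.0 of all genes. In SMARCA4-KD1 it was at least 1.5-fold lower under quantile normalization, at -0.62, and under the percentile over probes well above background, at -0.62. Scaled on spike-in controls, which moved all genes up, its log2 fold changes were -0.27 and -0.05.

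**Figure D2:**
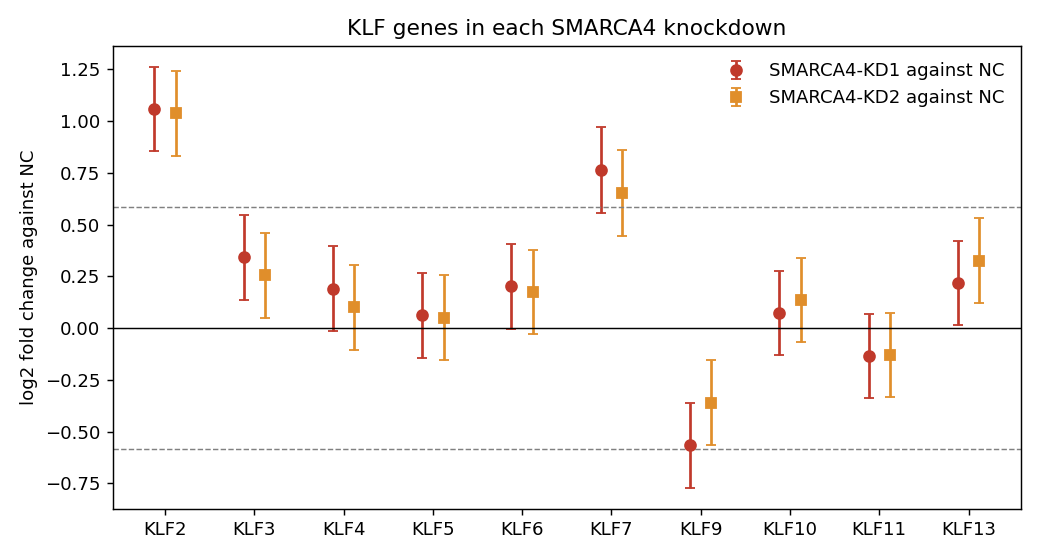
Log2 fold change against NC (y axis) of the brightest probe of each KLF gene (x axis) in SMARCA4-KD1 (circles) and SMARCA4-KD2 (squares), with extraction errors as bars and dashed lines at 1.5-fold. KLF2 and KLF7 lie above the upper line in both knockdowns, KLF9 lies just inside the lower line in SMARCA4-KD1, and the other 7 genes lie within 0.35 of NC.

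The DNA before the start sites of KLF2, KLF7 and KLF9 is shown because these 3 genes stood furthest from NC. The sequences are the 150 bases before a start site in RefSeq (GRCh38.p14), 5′ to 3′ on the gene's strand, with the letters GGGCGG (the GC box bound by SP and KLF proteins), CACCC (the CACCC box) and TATAAA (the TATA box), searched on both strands, in capitals. RefSeq listed 4 start sites for KLF7, and those with matches in the bases shown are given.
KLF2, chr19:16324676-16324825, plus strand: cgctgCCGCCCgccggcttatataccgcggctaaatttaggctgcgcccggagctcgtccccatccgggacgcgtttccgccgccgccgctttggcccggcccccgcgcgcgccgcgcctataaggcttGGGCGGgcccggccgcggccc
KLF7, chr2:207166857-207167006, minus strand: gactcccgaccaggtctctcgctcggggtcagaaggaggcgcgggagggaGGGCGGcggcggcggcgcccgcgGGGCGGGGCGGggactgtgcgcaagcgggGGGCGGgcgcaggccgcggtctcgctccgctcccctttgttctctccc
KLF7, chr2:207165949-207166098, minus strand: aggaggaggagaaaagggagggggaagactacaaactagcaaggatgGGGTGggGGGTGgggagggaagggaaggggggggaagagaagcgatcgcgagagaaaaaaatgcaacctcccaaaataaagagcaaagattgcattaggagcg
KLF9, chr9:70414658-70414807, minus strand: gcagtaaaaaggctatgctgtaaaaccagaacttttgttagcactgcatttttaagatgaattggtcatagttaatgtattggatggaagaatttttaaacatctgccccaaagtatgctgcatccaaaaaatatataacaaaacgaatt
The KLF2 stretch holds 2 GC boxes, the first KLF7 stretch holds 4, of which 2 overlap, the second KLF7 stretch holds 2 CACCC boxes, and the KLF9 stretch holds none of these letters. Over the 250 bases before the start, KLF2 had 4 GC boxes, and 7.63% of 35116 RefSeq promoters had at least as many. KLF4, which differed little from NC, also had 4. The table held 13 start sites for 8 of the 10 members (all but KLF3 and KLF10), and a GC box was found at 8 of the 13 start sites (61.5%), beside 42.6% of all promoters, while 6 (46.2%) had a CACCC box, beside 54.7%. Several start sites belong to the same gene, and by gene 7 of the 8 had a GC box at some start site and 4 had a CACCC box. The shares of all promoters are per start site, so they are no background for these counts by gene, for which none was computed. The GC content of this window was 80% for KLF2, at percentile 96.7 of all promoters, and 32.4% for KLF9, at percentile 2.93. KLF9 was the one member listed without a GC box, and its window also held no CACCC, TATA or TGACGTCA letters (the cAMP response element), the last of which was found at 1 start site of KLF11 and in 1.65% of all promoters. These are matches of letters, and binding was not measured on these arrays.

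The intestinal pair, KLF4 and KLF5, differed from NC by less than the spread between the knockdown arrays, whose log2 difference had an SD of 0.25 over the 19497 genes well above background on all arrays. KLF4 had an intensity of 637 in NC, 771 after SMARCA4-KD1 and 698 after SMARCA4-KD2, with log2 fold changes of 0.19 ± 0.20 and 0.10 ± 0.20. KLF5 had an intensity of 2391 in NC, 2644 after SMARCA4-KD1 and 2531 after SMARCA4-KD2, with log2 fold changes of 0.06 ± 0.20 and 0.05 ± 0.20. KLF5 lay at percentiles 55.5 and 52.7, near the middle of all genes. The KLF4 probe lies on chromosome 9 from 110248049 to 110248108 and the KLF5 probe on chromosome 13 from 73650979 to 73651038.

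KLF10 and KLF11, both known for their early induction by TGF-β, also lay near NC. KLF10 had an intensity of 2872 in NC, 3202 after SMARCA4-KD1 and 3223 after SMARCA4-KD2, with log2 fold changes of 0.07 ± 0.20 and 0.13 ± 0.20. KLF11 had an intensity of 822 in NC, 793 after SMARCA4-KD1 and 769 after SMARCA4-KD2, with log2 fold changes of -0.14 ± 0.20 and -0.13 ± 0.20 that became 0.17 and 0.19 when the arrays were scaled on spike-in controls. The second KLF11 probe was not well above background on any array.

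KLF3, a repressor that works through the CtBP corepressors, was 1.27-fold higher in SMARCA4-KD1 and 1.19-fold higher in SMARCA4-KD2. Its intensity was 2079 in NC, 2793 after SMARCA4-KD1 and 2537 after SMARCA4-KD2, and its log2 fold changes were 0.34 ± 0.20 and 0.25 ± 0.20. KLF13, a GC-box factor that was first described as an activator of the chemokine gene CCL5 in T cells, was 1.16-fold and 1.25-fold higher, with intensities of 6640.3 in NC, 8192 after SMARCA4-KD1 and 8508 after SMARCA4-KD2. Its log2 fold changes were 0.22 ± 0.20 and 0.33 ± 0.20, from the 1 of its 4 probes that was well above background. KLF2, KLF3, KLF7 and KLF9 were the 4 of 10 members whose difference from NC was beyond 0.25 on the same side in each knockdown, beside 42% of all genes, so that this share was near the background.

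KLF6, described as a tumor suppressor and regulator of the cell cycle inhibitor CDKN1A, had 3 probes well above background on all arrays, and these did not move alike. The brightest, on chromosome 10 from 3821387 to 3821446, had an intensity of 11009 in NC, 13420 after SMARCA4-KD1 and 12710.2 after SMARCA4-KD2, with log2 fold changes of 0.20 ± 0.20 and 0.18 ± 0.20. A dim probe from 3827370 to 3827429 gave 46.4, 45.2 and 39.7 in the same order, with log2 fold changes of -0.12 ± 0.26 and -0.26 ± 0.27. Another dim probe, from 3822976 to 3823035, gave 24.1 in NC, 47.9 after SMARCA4-KD1 and 29.9 after SMARCA4-KD2. Its log2 fold changes were 0.90 ± 0.32 after SMARCA4-KD1 and 0.28 ± 0.35 after SMARCA4-KD2, so that it was 1.54-fold apart between the knockdowns. The 2 dim probes lie close to the background, at which the extraction error is larger.

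**Figure D3:**
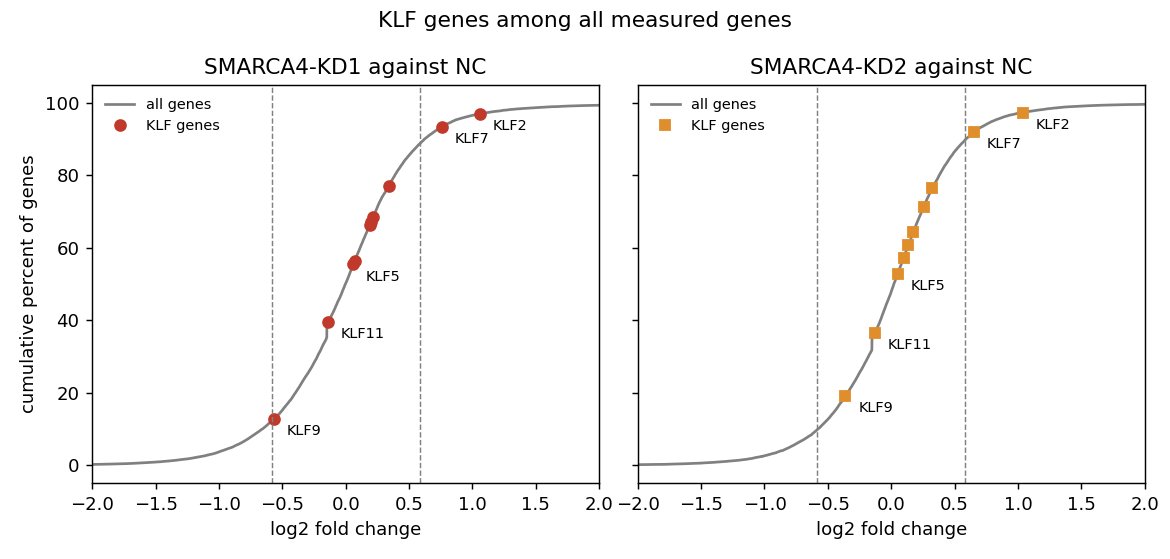
Cumulative percent of all 22620 genes (y axis, grey line) against their log2 fold change (x axis), with the 10 KLF genes as points, SMARCA4-KD1 on the left and SMARCA4-KD2 on the right, and dashed lines at 1.5-fold. KLF2 lies at percentiles 97.0 and 97.4, KLF9 at 12.8 and 19.0, and the small step left of 0 comes from genes raised to the floor of their arrays, which is the dimmest signal well above background.

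Between SMARCA4-KD1 and SMARCA4-KD2, which lay on the same slide, no member was at least 1.5-fold apart by its brightest probe, beside 3.53% of all genes lower and 3.06% higher in SMARCA4-KD1. All 10 members differed between the knockdowns by less than 0.25 on the log2 scale, as did 74% of all genes. The largest difference was that of KLF9, lower in SMARCA4-KD1 by a log2 value of -0.21 ± 0.20, and the next were KLF7, at 0.11, and KLF13, at -0.11. The smallest were those of KLF11, at -0.0063, and KLF5, at 0.01.

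When both knockdown arrays were fitted against NC with limma, which leaves 1 residual degree of freedom and rests on the assumption of an equal spread in NC, 0 of 22620 genes (0%) passed a Benjamini-Hochberg adjusted p of 0.05. Without adjustment 6954 genes (30.7%) had a p under 0.05, and 4 of the 10 members were among them, namely KLF2, KLF3, KLF7 and KLF9. By the methods' t-test on the same values 0 genes passed after adjustment and 3218 before it. In the limma fit the mean log2 difference of both knockdowns from NC was 1.05 for KLF2, 0.71 for KLF7 and -0.46 for KLF9. It lay between -0.13 and 0.30 for the other 7 members. The fit was repeated under 10 alternatives, but the number of these that passed decides nothing about a member. For KLF2, KLF7 and KLF9 the lowest adjusted p came from the setting with no filter. There, genes raised to the floor on every array were fitted too. The series-level table holds the same intensity within 0.1%, except for 1 of 57871 probes compared, so that it is not independent data. Its limma fit still called a different number of genes than the values reported here, and the reason was not tested.

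The other KLF genes and the related SP genes bind similar sequences, and of these 16 genes, 15 were measured and KLF15 was not well above background on any array. By its brightest probe, none of the 15 was at least 1.5-fold from NC in both knockdowns in the same direction. Of all genes, 6.36% were higher in each and 8.03% were lower in each. KLF16, a repressor acting through SIN3A, came nearest to this on the higher side, with an intensity of 4386 in NC, 7923 after SMARCA4-KD1 and 6617 after SMARCA4-KD2 and log2 fold changes of 0.77 and 0.56. KLF12 (-0.72 and -0.48) and KLF17 (-0.59 and -0.45) were lower, KLF1 (0.28 and 0.44) was higher, and KLF8 (-0.13 and 0.15) differed in sign. KLF14 was not well above background in NC, and it was at least 1.57-fold higher in SMARCA4-KD1 and at least 1.25-fold higher in SMARCA4-KD2, by its measured signal over the lowest level well above background.

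Among the SP genes, SP5, a target of Wnt signaling, had the lowest values, with log2 fold changes of -0.58 and -0.74. SP1 (-0.19 and -0.09) and SP3 (-0.14 and -0.04), the widely expressed members, lay near NC. The values were 0.23 and 0.33 for SP2, 0.05 and 0.05 for SP4, 0.06 and 0.07 for SP6, -0.01 and 0.09 for SP7, -0.51 and -0.00041 for SP8, and 0.27 and 0.42 for SP9. By these brightest probes, 0 of the 9 SP genes passed 1.5-fold in SMARCA4-KD1, beside 11.2% of all genes higher and 12.2% lower. SP5 alone did in SMARCA4-KD2, beside 10.1% higher and 9.77% lower. Second probes of SP7, SP8 and SP9 differed from the values of the brightest probes. The second probe of SP7 was well above background in SMARCA4-KD1 alone, at an intensity of 218. This was at least 11.6-fold higher than NC, with a log2 extraction error of 1.45, and it rests on 1 array. The second probe of SP9, well above background on all arrays, had log2 fold changes of 0.48 and 0.73. That of SP8 was not well above background in SMARCA4-KD2 and had log2 fold changes of -0.46 and -0.54, the latter against the floor.

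Of 16 genes for proteins that act with KLFs or control them, all were measured, and 1 was at least 1.5-fold lower in both knockdowns while 0 were higher in both, beside 8.03% and 6.36% of all genes, so that 1 of 16 is no more than the background. The lower gene was KAT2B, a histone acetyltransferase also called PCAF, with an intensity of 191 in NC, 77.4 after SMARCA4-KD1 and 86.5 after SMARCA4-KD2 and log2 fold changes of -1.39 and -1.18. The median of these 16 genes was 0.10 after SMARCA4-KD1 and 0.11 after SMARCA4-KD2. Of 21 genes described as targets of KLFs, 18 were measured. Of these, 6 (33.3%) were lower in both knockdowns and 2 (11.1%) higher in both, beside 8.03% and 6.36% of all genes. The medians were -0.29 and -0.23, beside -0.0022 and 0.02 for all genes. ATF3 and MYC are also among the immediate early genes below. Without them, 6 of 16 were lower in both and 1 higher in both, with medians of -0.39 and -0.27. The lower ones included FGFBP1, a secreted carrier of growth factors (-1.72 and -1.44), PLAU, the urokinase gene (-1.22 and -0.82), and SMAD7, an inhibitor of TGF-β signaling (-0.68 and -1.13). The other lower ones were the cell cycle genes CCND1 (-0.71 and -0.99), CCNB1 (-0.82 and -0.69) and CDK1 (-0.81 and -0.79). The higher ones were CDKN1A, the p21 gene (1.06 and 0.73), and ATF3, a stress-induced factor (0.84 and 0.67). Many other factors act on these genes, and the part of KLFs in their values was not tested.

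Immediate early genes are induced quickly after growth factors or stress. Of 17 such genes, 11 had at least a 1.5-fold higher signal in each knockdown, beside 6.36% of all genes. By the same threshold 0 were lower in both, beside 8.03% of all genes. In SMARCA4-KD2, however, 2 of the 17 lay below NC, 1 of them by at least 1.5-fold. The median log2 fold change of the 17 was 0.84 after SMARCA4-KD1 and 0.79 after SMARCA4-KD2. EGR1 had log2 fold changes of 1.24 and 1.28, FOS 1.06 and 1.13, JUN 1.81 and 1.58, and ZFP36, which destabilizes mRNAs, 0.79 and 0.79. Of the others among the 11, EGR2 (0.98 and 0.98), FOSB (1.71 and 0.95) and IER2 (0.71 and 0.61) were well above background in NC. So were NR4A1 (0.93 and 1.00), CYR61 (1.56 and 1.04) and ATF3. NR4A1 was dim, with an intensity of 29.9 in NC, where the lowest intensity well above background was 17.7. EGR3 was not well above background in NC and was at least 5.61-fold and 5.92-fold higher. Of the 6 epithelial markers, CLDN7, a tight junction gene, was higher in both knockdowns (0.79 and 0.72), and the medians of the 6 were 0.06 and 0.02.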

How the data were processed

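RNA of the 3 HCT116 conditions was labelled with 1 dye and hybridized to human SurePrint G3 arrays (Agilent, version 3). Per the file headers, the authors obtained spot intensity with Feature Extraction 10.7.1.1, which subtracts background and detrends but does not normalize between arrays. The files also carry spot flags that were used as given, such as the control type. The series-level table holds the same intensity within 0.1%, except for 1 of 57871 probes with 1 spot, and served as an alternative.

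Control spots and outlier spots were left out, and repeated spots were averaged on the log2 scale. The 75th percentile of each array (an intensity of 237, 228 and 223 in SMARCA4-KD1, SMARCA4-KD2 and NC) was subtracted from log2 of the signal. Values not well above background were raised to the lowest level well above it, so that folds against them are limits. Of the probes, 29334 were well above background on 1 array or more, and their brightest per gene represented 22620 genes. Names of genes and hg19 positions were taken from the files, and for all 10 KLF members the RefSeq accession of this probe carried the same symbol. Folds were counted at 1.5-fold with no test. Both knockdowns were also fitted against NC with limma 3.58.1 (R 4.3.3), with the trend option and p-values adjusted by Benjamini and Hochberg. Python 3.11.15, numpy 2.4.6, pandas 2.3.3 and matplotlib 3.10.9 were used for the rest. The steps were tested on simulated data.

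The members, lists and alternatives were chosen with earlier results of these data known. Named genes were all members, the other KLF and SP genes, and those of the other lists that both knockdowns placed at least 1.5-fold from NC on the same side. The alternatives were quantile normalization, a percentile over only those probes that were well above background throughout, normexp with an offset of 50, a stricter filter (all arrays) or no filter, values without the floor, the mean over probes, the series-level table, a 2-fold threshold and, for limma, no trend, an unadjusted p and the methods' t-test. Scaling on 8 spike-in controls was chosen after seeing the data.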

Additional observations from a re-analysis of the deposited data

How the results depend on the processing

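No paired analysis was possible because each condition had 1 array. The number of KLF members at least 1.5-fold lower in SMARCA4-KD1 was 1 (KLF9) under quantile normalization and 1 when the percentile was taken over only those probes that were well above background throughout. The number higher was 1 in each knockdown (1 and 1) with normexp background correction, and likewise 1 and 1 at 2-fold, the remaining gene being KLF2. The median of the members was 0.086 in SMARCA4-KD1 under quantile normalization. The spike-in controls were lower in the knockdowns than in NC by log2 values of -0.30 and -0.32. Scaled on them, all genes had medians of 0.30 (SMARCA4-KD1) and 0.34 (SMARCA4-KD2) and the members 0.50 and 0.47, and 3 members were at least 1.5-fold higher in each knockdown, with KLF3 (0.64) added in SMARCA4-KD1 and KLF13 (0.64) in SMARCA4-KD2. Genes called by limma numbered 0 with the mean over probes, with no trend, with that same percentile and by the methods' t-test. They numbered 2651 under quantile normalization, 3601 with normexp, 5174 with a filter on all arrays, 28567 with no filter, 3359 with no floor, 3623 with the series-level table, 5320 scaled on the spike-ins and 6954 at an unadjusted p of 0.05. With no filter, genes raised to the floor on every array were fitted too. Each of these carried the same log2 difference of -0.15 in each knockdown, which was the median of all genes in that setting. That value is the difference between the floors and not a measured change. The cause of the different counts was not tested. Of the single members' log2 fold changes under these alternatives, 250 moved by less than the SD between the knockdown arrays and 20 moved by more, all 20 when scaled on the spike-ins. Many of the 250 could not have moved. The filter alternatives and the values without the floor leave a probe well above background on all arrays as it was. The series-level table holds the same intensity, and the mean over probes could change KLF6 alone. Of the members' probes well above background, those of KLF7 and the dim ones of KLF6 had the lowest signal. Why KLF7 fell under 1.5-fold with normexp was not tested.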
